A study of Rattus norvegicus with 24 samples.

Results

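S100 proteins and annexins are calcium-binding proteins that often work as pairs, and 10 of their genes were followed here in the cystic rat kidney: the S100 genes S100a4, S100a6, S100a10 and S100a11, and the annexin genes Anxa1, Anxa2, Anxa3, Anxa4, Anxa5 and Anxa13. They were chosen by name, as members of both families, with earlier results of these data known. All 10 were found among the 17334 genes of the files. Each also passed the filter on low counts that left 12778 genes for testing.

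RNA of the left kidney was sequenced in 24 males of the strain PKD/Mhm (Cy/+), aged 8 months, in 4 groups of 6. These rats are heterozygous for a missense change in Anks6 and develop slowly progressing polycystic kidney disease, and cystic animals were picked by palpation of the abdomen. Control rats (Ctrl) carried the same allele and were untreated, and no kidney without cysts was analysed here. The other groups were treated once a month for 6 months with human skin-derived ABCB5+ stromal cells given into the peritoneum (ipABCB5) or into a vein (ivABCB5), or with conditioned medium (CoCM) of ABCB5+ cells grown together with stimulated macrophages of the human THP-1 line. The sources differ on whether the medium was given into the peritoneum or into a vein.

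An S100 protein is a small protein with EF-hand loops that opens a binding surface when calcium is bound, and an annexin is a protein that settles on acidic membrane lipids when calcium rises. S100a10 and Anxa2 form a complex that gathers plasminogen and its activator at the cell surface, and S100a11 binds Anxa1 and Anxa2. In the kidney, several members of both families are known to be higher in injured or regenerating tubules, in leukocytes and in fibroblasts than in resting nephron segments.

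Total estimated counts were 9304630 to 14125457 per library, and every member but Anxa13 had at least 102 counts in each. Markers of the nephron segments, podocytes and endothelium were measured, and none was at 0 in every library. On the first principal component of all tested genes, which held 56.3% of the variance, 4 libraries stood apart at scores of 80.83 to 97.42, against -53.01 to 11.53 in the other 20. They were CoCM animal 39, ipABCB5 animal 38 and ivABCB5 animals 36 and 37, so none was a control. In these 4 libraries 13557 to 13797 genes had counts above 0, against 13904 to 14184 in the other 20. Animals 38 and 39 also had the smallest totals, 9304630 and 9759947. Results are therefore given with and without these 4 libraries, which are called the 4 separate libraries.

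S100a11, a partner of Anxa1 and Anxa2, had the highest level of the 10 genes. Its mean of 5846 TPM (a level corrected for transcript length and scaled to a common total) over 24 animals was the eighth of all genes in the files. Its transcript is short, with a median of 1.06 estimated counts per TPM, so this rank rests on the length correction. RefSeq names 7 further copies of S100a11 in the rat genome and none has a value here, so reads that fit such a copy could not be told apart. The same limit holds for S100a10 and Anxa2, with 1 further copy each and no value for it. S100a10, the light chain of the Anxa2 complex, followed at a mean of 848 TPM and was lower than S100a11 in 24 of 24 animals. S100a6 (calcyclin) had a mean of 711 TPM and was below S100a10 in 20 of 24 animals. S100a10 and S100a6 had medians of 3.54 and 1.92 estimated counts per TPM, against 11.1 to 17.2 for Anxa1, Anxa2, Anxa4 and Anxa5. Their place above these annexins therefore also rests on the length correction.

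Anxa1, which restrains inflammation through formyl peptide receptors, had a mean of 386 TPM. Anxa2, the membrane partner of S100a10, had 382 TPM, and Anxa5, which binds phosphatidylserine on dying cells, had 369 TPM. These neighbours were not separated by their spread, because Anxa1 exceeded Anxa2 in 11 of 24 animals and Anxa2 exceeded Anxa5 in 15. Anxa4, an annexin of epithelial membranes, had a mean of 290 TPM and was below Anxa5 in 20 animals. S100a4, known from fibroblasts and leukocytes and as a partner of non-muscle myosin, had 165 TPM and was below Anxa4 in 23 animals. Anxa3 stood at 34.3 TPM. Anxa13, an annexin of gut and kidney epithelium, was the lowest at 2.89 TPM, with 11 to 182 counts per library.

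The RefSeq promoter table of the rat assembly GRCr8 held 8 of the 10 members, without S100a10 and Anxa13. Promoter sequence is shown for the other genes of the 4 partner pairs compared below (S100a6, S100a11, Anxa1 and Anxa2). It is also shown for Anxa4, the member with the most even levels over all 24 animals. The 130 bases before the start are printed 5′ to 3′ on the gene's strand, with capitals for 3 searched motifs, TGANTCA for AP-1, GGGCGG for Sp1 and TATAAA for the core promoter box of that name.
S100a6 promoter, chr2:178398407-178398536, plus strand: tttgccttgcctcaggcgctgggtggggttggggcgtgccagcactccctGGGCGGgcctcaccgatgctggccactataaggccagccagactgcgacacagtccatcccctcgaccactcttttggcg
S100a11 promoter, chr2:181875002-181875131, plus strand: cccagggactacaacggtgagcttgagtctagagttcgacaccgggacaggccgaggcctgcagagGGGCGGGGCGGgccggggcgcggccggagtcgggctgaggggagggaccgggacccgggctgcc
Anxa1 promoter, chr1:227303733-227303862, minus strand: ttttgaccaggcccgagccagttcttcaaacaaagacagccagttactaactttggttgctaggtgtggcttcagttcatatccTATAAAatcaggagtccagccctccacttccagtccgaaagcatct
Anxa2 promoter, chr8:78986122-78986251, plus strand: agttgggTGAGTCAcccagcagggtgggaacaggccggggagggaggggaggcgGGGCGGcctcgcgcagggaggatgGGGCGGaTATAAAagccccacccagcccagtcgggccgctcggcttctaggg
Anxa4 promoter, chr4:120798514-120798643, minus strand: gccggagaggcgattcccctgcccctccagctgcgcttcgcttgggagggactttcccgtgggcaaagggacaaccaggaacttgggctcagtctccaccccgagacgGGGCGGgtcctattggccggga
Windows from 250 bases before to 50 bases after the start were searched on both strands. TATAAA was in 3 of the 8 member windows and in 14.2% of all 33469 promoters, and the 3 were S100a4, Anxa1 and Anxa2. The windows of S100a6, S100a11, Anxa3 and Anxa5, which are low in the same libraries as those 3 below, held none. GGGCGG was in 6 of 8 members and in 33.1% of all promoters. TGANTCA was found in Anxa2 alone among the 8, at base -123 from the start, where the pattern matches on both strands, and in 7.33% of all promoters. A match describes letters and not binding.

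S100a10 was at 775, 906 and 1130 TPM (lowest, median and highest) in Ctrl, 351, 995 and 1237 in CoCM, 369, 889 and 1033 in ipABCB5, and 295, 816 and 1113 in ivABCB5. Anxa2 was at 320, 458 and 562 TPM in Ctrl, 122, 431 and 529 in CoCM, 146, 394 and 471 in ipABCB5, and 106, 400 and 495 in ivABCB5. For both partners the 4 groups overlapped, and the lowest value of each treated group came from a separate library.

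S100a11 showed the same layout, at 4433, 6605 and 8710 TPM in Ctrl, 1862, 6690 and 9156 in CoCM, 2222, 6481 and 7179 in ipABCB5, and 1576, 5363 and 7740 in ivABCB5. Anxa1 was at 365, 442 and 640 TPM in Ctrl, 131, 416 and 497 in CoCM, 129, 370 and 527 in ipABCB5, and 93.6, 388 and 537 in ivABCB5. The range within each treated group was wider than in Ctrl for both genes, with 1 library far below the rest in CoCM and ipABCB5 and 2 in ivABCB5.

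Among the others, S100a6 had group means of 843 ± 285 TPM (SD, n = 6) in Ctrl, 779 ± 264 in CoCM, 676 ± 195 in ipABCB5 and 544 ± 280 in ivABCB5. S100a4 had 201 ± 70.7, 168 ± 70.0, 155 ± 48.6 and 134 ± 70.0 TPM in the same order. Both means were lowest in ivABCB5, where the ranges of the animals overlapped those of every other group. Without the 4 separate libraries the means were 843, 870, 751 and 712 TPM for S100a6 in the same order. For S100a4 they were 201, 191, 173 and 175 TPM, so ivABCB5 was no longer lowest. Anxa5 had 435 ± 44.9, 356 ± 133, 363 ± 125 and 323 ± 162 TPM, and Anxa3 had 42.4 ± 9.16, 32.7 ± 12.4, 31.9 ± 11.9 and 30.1 ± 15.5 TPM. Their SD was smallest in Ctrl over all animals. Without the 4 separate libraries the SD of Anxa3 was 9.16, 7.74, 9.36 and 4.81 TPM in the same order, so Ctrl was no longer smallest. That of Anxa5 was 44.9, 70.5, 67.1 and 45.7 TPM.

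Over all animals Anxa4 stood out by its evenness, with 295 ± 55.1 TPM in Ctrl, 297 ± 33.4 in CoCM, 307 ± 31.7 in ipABCB5 and 261 ± 63.0 in ivABCB5. Its coefficient of variation over 24 animals was 16.5%, against 31.6% to 107% for the other members. Anxa13 was the most variable, at 0.887, 1.48 and 3.45 TPM (lowest, median and highest) in Ctrl, 0.697, 1.71 and 7.42 in CoCM, 0.956, 2.27 and 5.02 in ipABCB5, and 0.995, 1.62 and 12.1 in ivABCB5. Here the separate libraries were the highest of their groups instead of the lowest.

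**Figure D1:**
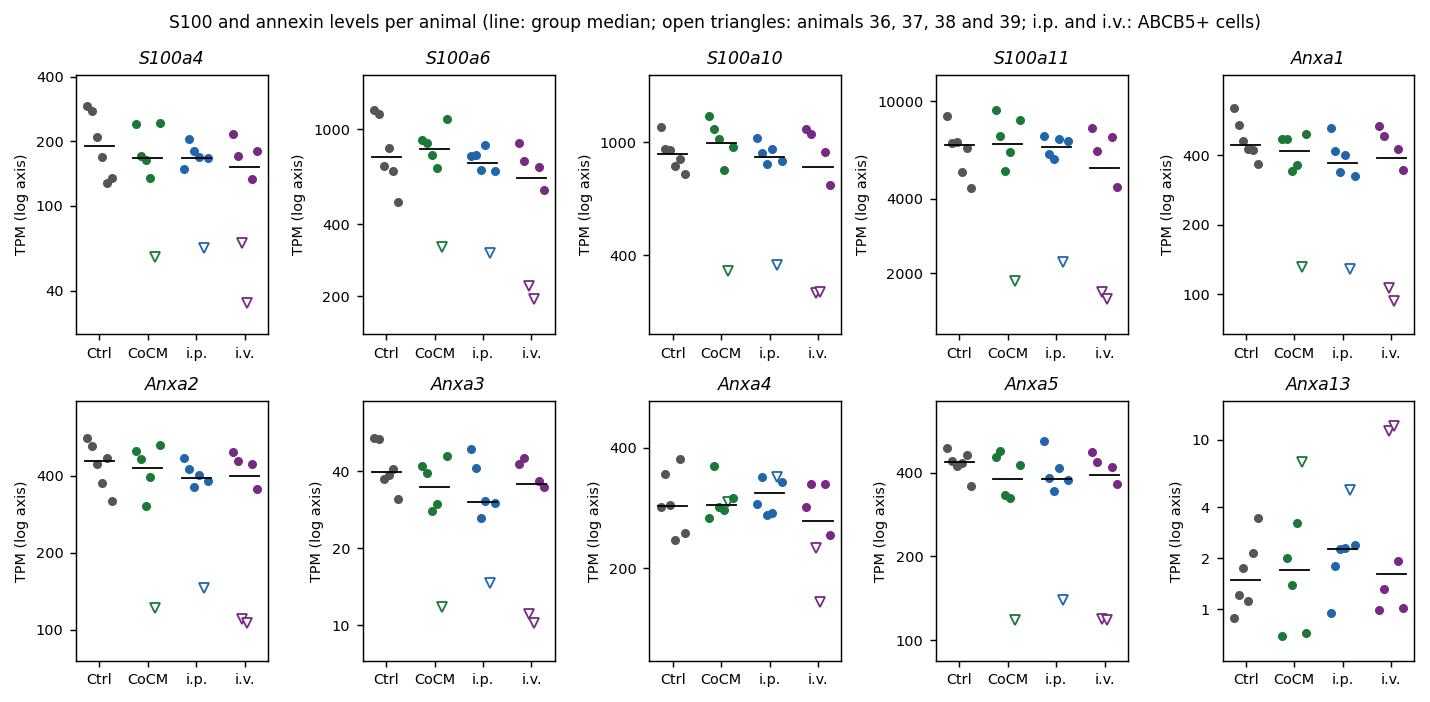
TPM of the 10 genes in each of 24 animals on log axes, by group (i.p. and i.v. stand for ipABCB5 and ivABCB5), with the group median as a line and the 4 separate libraries as open triangles. The triangles lie below every other animal for 8 genes, above every other animal for Anxa13, and among the others for Anxa4 except in ivABCB5, where they are the 2 lowest.

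In the 4 separate libraries, 8 of the 10 members took up a smaller share of the RNA measured, in TPM. For S100a4, S100a6, S100a10, S100a11, Anxa1, Anxa2, Anxa3 and Anxa5, all 4 libraries were below each of the other 20, and for Anxa13 all 4 were above. Over the 12778 tested genes, 22.8% had all 4 below the other 20 and 3.55% had all 4 above. These genes entered the component by which the libraries were separated, so the counts are a description without a test. The 10 members were also chosen with earlier results of these data known. Of 12 further S100 and annexin genes tested, 3 had all 4 libraries below the other 20.

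S100a11 was at 1862 TPM in CoCM animal 39, 2222 in ipABCB5 animal 38, and 1681 and 1576 in ivABCB5 animals 36 and 37, against 4433 to 9156 in the other 20. That was 3.1 to 4.25 times lower than the median of the other animals of the same group. Anxa1 was at 131, 129, 106 and 93.6 TPM in the same animals, against 324 to 640, or 3.12 to 4.88 times lower. For both genes the gap below the other 20 was wider than the range of the 4 libraries themselves.

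S100a10 was at 351, 369, 295 and 298 TPM, against 708 to 1237 in the other 20, and 2.49 to 3.38 times lower than its groups' medians. Anxa2 was at 122, 146, 110 and 106 TPM, against 305 to 562, or 2.76 to 4.25 times lower. The ratio of S100a10 to Anxa2 in TPM was 2.53 to 2.88 in the 4 libraries and 1.81 to 3.38, with a median of 2.19, in the other 20. Both partners were thus low together. The ratio of 3.38 came from CoCM animal 34, with 1030 TPM of S100a10 and 305 of Anxa2. Every other kidney of the 20 had a ratio below those of the 4 libraries. The ratio of S100a11 to Anxa1 was 14.3 to 17.3 in the 4 libraries and 12.1 to 21.2 in the other 20.

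The other 4 genes were lower by a like size, 2.62 to 4.99 times for S100a4, 2.55 to 3.67 for S100a6, 2.09 to 3.89 for Anxa3 and 2.75 to 3.65 for Anxa5. Anxa4 was at 293, 339, 224 and 164 TPM, against 235 to 375 in the other 20. On TPM it was thus low in both ivABCB5 libraries and within the range in the others. Anxa13 was at 7.42, 5.02, 11.3 and 12.1 TPM, against 0.697 to 3.45, or 2.22 to 10.4 times higher than its groups' medians. On CPM, counts scaled to library size with TMM factors, the 8 genes were 1.87 to 3.72 times lower, and Anxa13 was 2.65 to 14.1 times higher. Anxa4 was at 455, 552, 347 and 288 CPM, against 317 to 494 in the other 20. On this scale only ivABCB5 animal 37 was low, and ipABCB5 animal 38 was above all others. The TMM factors were 0.8101 to 0.9006 in the 4 libraries and 0.9741 to 1.11 in the other 20.

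Other cell types and injury genes moved with these members. The summed TPM of 6 macrophage markers was 60.5 to 137 in the 4 libraries and 308 to 779 in the other 20, and that of 5 T cell markers was 8.74 to 16.8 against 66.6 to 172. The 6 fibroblast and myofibroblast markers summed to 233 to 304 against 356 to 1288. The 9 injured-tubule markers summed to 652 to 1049 against 7778 to 15944, with Spp1 (osteopontin) at 326 to 566 against 6141 to 13258, Havcr1 (kidney injury molecule) at 1.8 to 8.51 against 31.1 to 142, and Lcn2 (lipocalin) at 13.6 to 18.2 against 164 to 520 TPM.

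Of the individual markers, 6 of 6 for macrophages, 5 of 5 for T cells, 4 of 6 for fibroblasts and 7 of 9 for injured tubules had all 4 libraries below the other 20. Of all tested genes 22.8% did. The markers also entered the component by which the libraries were separated, so their counts are a description without a test. The 8 proximal tubule markers summed to 3618 to 5086 TPM in the 4 libraries against 865 to 3722. For 3 of them (Slc34a1, Slc22a6 and Slc13a3) all 4 libraries were above the other 20, as for 3.55% of all tested genes. The 4 thick ascending limb markers summed to 4420 to 5389 against 989 to 4677. Endothelial markers overlapped, at 193 to 270 against 132 to 314, and so did podocyte markers, at 250 to 512 against 157 to 501. The part of any of these cell types in the levels of the members was not tested, and in whole tissue fewer cells of a type and less RNA per cell cannot be told apart.

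No member passed the test in any comparison with untreated rats. For CoCM against Ctrl, edgeR's quasi-likelihood test with Benjamini-Hochberg adjustment called 0 of 10 members, against 0.00783% of all genes tested, and 0 members against 11.9% of genes at an unadjusted p under 0.05. Log2 fold changes ran from -0.29 ± 0.307 (SE) for Anxa3 (adjusted p = 0.66) to 0.68 ± 0.733 for Anxa13 (adjusted p = 0.659), with 4 members above 0 and 6 below. The median was -0.07 over the members and 0.01 over all genes. S100a10 and S100a11 were at 0.10 ± 0.285 and 0.10 ± 0.359, and at 0.25 ± 0.148 (adjusted p = 0.373) and 0.28 ± 0.199 (adjusted p = 0.459) without the 4 libraries. Without CoCM animal 39 alone, the median of the members was 0.03 and Anxa13 was at -0.05.

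For ipABCB5 against Ctrl, edgeR called 0 of 10 members and 0.0% of all genes, and at an unadjusted p under 0.05 it called 0 members and 1.77% of genes. Of the members 8 were below 0, with Anxa1 at -0.41, Anxa3 at -0.40 and S100a4 at -0.37 on the log2 scale, and the median was -0.26 against 0.00 for all genes. Adjusted p-values were 0.978 or above. The median was -0.12 without animal 38 and -0.11 without the 4 libraries.

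For ivABCB5 against Ctrl, edgeR again called 0 of 10 members and 0.0% of genes. Of the members 9 were below 0, among them S100a6 at -0.62 (unadjusted p = 0.0638), S100a4 at -0.59, Anxa1 at -0.52 and Anxa3 at -0.49, and the median was -0.43 against 0.01 for all genes. Anxa13 was at 1.70 ± 0.729, with an unadjusted p of 0.029 in edgeR and an adjusted p of 0.673, so 1 of 10 members was under 0.05 unadjusted, against 5.78% of genes. Without the 4 libraries the median was -0.10, next to -0.11 in ipABCB5, and Anxa13 was at -0.46 ± 0.437 (edgeR adjusted p = 1.0). Leaving out animal 36 alone gave a median of -0.27 and Anxa13 at 1.25, and leaving out animal 37 alone gave -0.29 and 1.04. With limma voom and sample quality weights Anxa13 was at -0.02, and on log2(TPM + 1) and log2(TPM + 0.1) it was at 0.61 and 0.73.

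The routes of cell delivery were compared directly in the same fit. For ipABCB5 against ivABCB5, edgeR called 0 of 10 members and 0.0% of genes, with 0 members and 2.14% of genes at an unadjusted p under 0.05. The members' median was 0.18 against -0.00 for all genes, Anxa4 was at 0.25 (unadjusted p = 0.0528 in edgeR) and Anxa13 was at -1.09. Without the 4 libraries the median was 0.00, Anxa4 was at 0.09 and Anxa13 at 0.66. Without animal 36 the median was 0.02 and without animal 37 it was 0.03. Without animal 38 it was 0.31.

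In the F-test over the 4 groups, edgeR gave 0 called members, a smallest adjusted p of 0.817 among them, 0.0% of genes called and 4.71% under 0.05 unadjusted. DESeq2 called 0 members in each of the 4 comparisons between groups, with 1 of 10 members under 0.05 unadjusted for ivABCB5 against Ctrl, where 7.58% of all genes were, and 1 for ipABCB5 against ivABCB5, where 2.82% were. Under 0.05 unadjusted in DESeq2 were 0 of 10 members and 13.5% of genes for CoCM, and 0 of 10 and 2.17% for ipABCB5, each against Ctrl. For every member the groups overlapped in every comparison on CPM. The treated comparisons share the same 6 control animals, so their values are not independent of each other. A p that misses the threshold does not show that levels were equal, and the SE of 0.122 for Anxa4 and 0.733 for Anxa13 in the CoCM comparison shows how unevenly the genes were resolved.

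**Figure D2:**
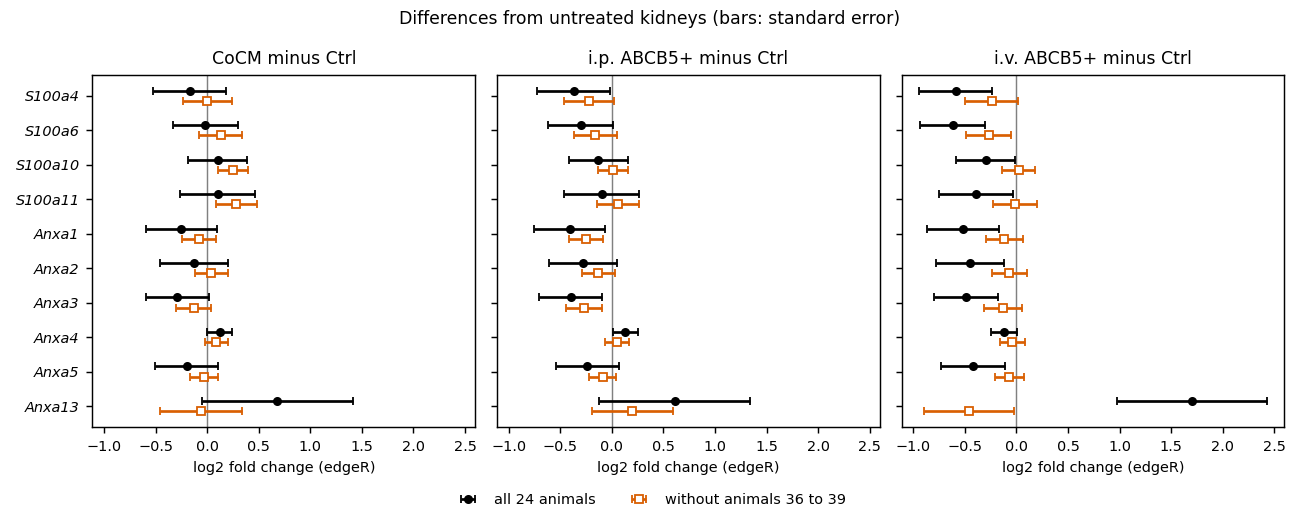
Log2 fold change from edgeR for the 10 genes in each treated group minus Ctrl, with its standard error as a bar, over all 24 animals (filled circles) and without the 4 separate libraries (open squares). Most values in ivABCB5 lie nearer to 0 without the 4 libraries, and Anxa13 moves from 1.70 to -0.46.

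Among the other 20 kidneys, the 4 pairs of known binding partners tested rose and fell together from animal to animal, as did other pairs of members described below. S100a11 and Anxa2 had a Pearson r of 0.90 and a Spearman rho of 0.89 on log2 CPM (n = 20 animals, two-sided permutation p = 1e-05 for each, the smallest that 100000 permutations can give, adjusted p of rho over the 4 pairs tested = 4e-05). S100a6 and Anxa2 had r of 0.80 (permutation p = 5e-05) and rho of 0.78 (p = 0.0001, adjusted 0.0002). S100a11 and Anxa1 had r of 0.74 (permutation p = 0.00022) and rho of 0.72 (p = 0.00063, adjusted 0.00063). S100a10 and Anxa2 had r of 0.69 (permutation p = 0.00079) and rho of 0.72 (p = 0.00055, adjusted 0.00063).

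Without the 2 animals farthest from the median of the first gene, r was 0.86, 0.67, 0.66 and 0.61 in the same order, so no relation rested on those animals. With values centred on their group means, rho was 0.93, 0.81, 0.79 and 0.72. As background, 3.4% of all genes had at least the rho of S100a10 to Anxa2, 2.83% at least that of S100a11 to Anxa1, 1.75% at least that of S100a6 to Anxa2 and 0.157% at least that of S100a11 to Anxa2. All values of an animal share its library and depth.

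**Figure D3:**
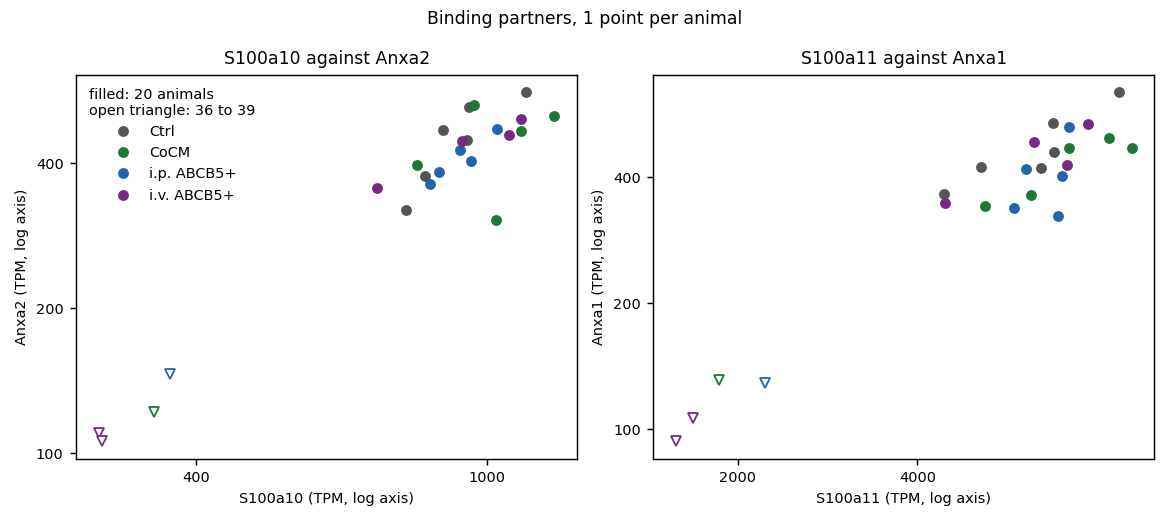
TPM of S100a10 against Anxa2 and of S100a11 against Anxa1 on log axes, with 1 point per animal coloured by group and the 4 separate libraries as open triangles. Filled points form 1 rising cloud in which the groups mix, and the triangles lie at the low end of both axes.

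The 28 pairs among the 8 genes that were low in the separate libraries had rho of 0.49 to 0.90 over the other 20 animals, with a median of 0.72. The highest was between Anxa1 and Anxa3, which are not among the 4 partner pairs, and S100a10 with Anxa2 and S100a11 with Anxa1 were at the median. Anxa4 was less closely tied to the 8, with rho of 0.27 to 0.51. Anxa13 ran the other way, with rho of -0.75 (Anxa3) to -0.28 (S100a11). The 4 S100 genes all lie on rat chromosome 2, where 1 gene lies between S100a4 and S100a6, 1 between S100a11 and S100a10, and 87 between S100a6 and S100a11.

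**Figure D4:**
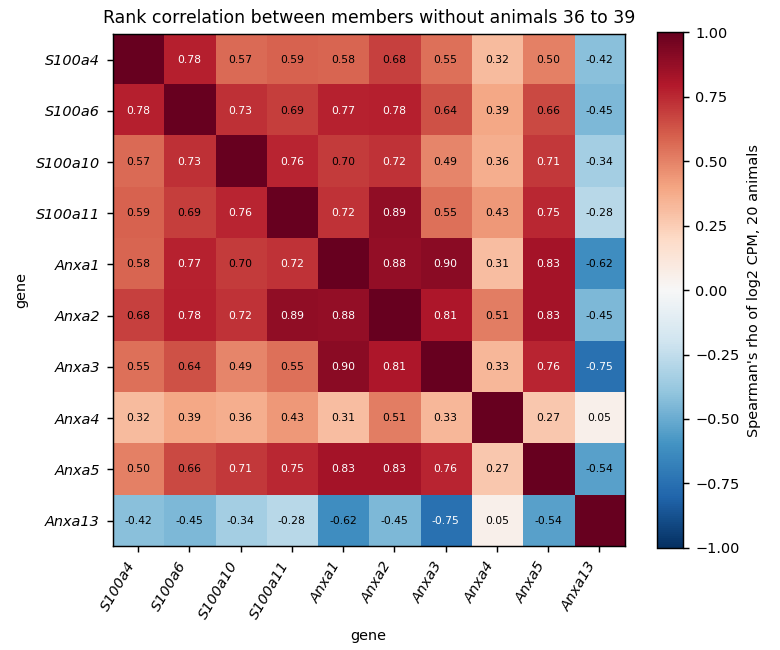
Spearman's rho of log2 CPM between each pair of the 10 genes over the 20 animals left without the 4 separate libraries, printed in each square and coloured from -1 (blue) to 1 (red). The 8 genes other than Anxa4 and Anxa13 form a red block of 0.49 to 0.90, and the Anxa13 squares with these 8 are blue.

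By rank correlation over the same 20 animals and 12693 genes, the gene most like S100a11 was Tmed3, a cargo receptor of the early secretory pathway, with rho of 0.97. S100a4 was most like Tmsb4x, an actin-binding thymosin, with 0.92, and Anxa3 was most like Rcn1, a calcium-binding protein of the endoplasmic reticulum, with 0.95. Anxa13 was most like Hadha, a subunit of the mitochondrial enzyme of fatty acid oxidation, with 0.89, and Anxa4 was most like Gmpr, which converts GMP to IMP, with 0.87. The remaining closest genes were Rps4x for S100a6 (0.91), Jpt1 for S100a10 (0.92), Dctd for Anxa1 (0.92), Podxl2 for Anxa2 (0.94) and Tbrg1 for Anxa5 (0.94). For S100a6, Anxa1 and Anxa4 the next gene had the same rho to 2 decimals.

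Of 20 further S100 and annexin genes listed, 17 were in the files and 12 were tested. Among these edgeR called 0 in each of the 4 comparisons between groups, against at most 0.00783% of all genes. At an unadjusted p under 0.05 there was 1 of 12, in ivABCB5 against Ctrl, where 5.78% of all genes were. The gene was S100g (calbindin-D9k), singled out after its values were seen, at a log2 fold change of 1.35 ± 0.646 (edgeR unadjusted p = 0.048, adjusted p = 0.673). The highest level was that of S100a1, a calcium sensor best known from muscle, at 679 ± 164 TPM (SD, n = 6) in Ctrl, 840 ± 322 in CoCM, 903 ± 422 in ipABCB5 and 657 ± 92.5 in ivABCB5. Anxa11 followed with a mean of 199 TPM over all animals, then S100a16 with 159, Anxa6 with 151, Anxa7 with 122 and S100a13 with 80.8. S100a8 and S100a9, the calprotectin subunits of neutrophils and monocytes, were low, at 8.49 ± 5.47 and 18.2 ± 15.3 TPM in Ctrl and 4.75 ± 4.87 and 11.8 ± 7.87 in ivABCB5. In this list 3 of 12 genes had all 4 separate libraries below the other 20 and 1 (S100g) had them above, where 22.8% and 3.55% of all genes did.

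Of 25 partners and receptors, 23 were tested and edgeR called 0 in each comparison between groups, against at most 0.00783% of all genes. At an unadjusted p under 0.05 there were 2 in CoCM, 0 in ipABCB5 and 2 in ivABCB5, each against Ctrl, and 2 between the routes. The shares of all genes were 11.9%, 1.77%, 5.78% and 2.14% in the same order. Plgrkt, a cell-surface plasminogen receptor, had the lowest p in CoCM and was at 0.36 ± 0.148 on the log2 scale (edgeR adjusted p = 0.379), followed by the annexin-binding Pdcd6 at 0.16 ± 0.0782 (adjusted p = 0.417). In ipABCB5 the lowest were the calpain Capn1 at 0.21 ± 0.118 and Plat, tissue plasminogen activator, at -0.23 ± 0.162 (adjusted p = 0.978 for both). In ivABCB5 they were the calpain Capn2 at -0.19 ± 0.0883 and the phospholipase Pla2g4a at -0.27 ± 0.129 (adjusted p = 0.673 for both). Between the routes they were Sri (sorcin) at 0.24 ± 0.103 and Pla2g4a at 0.27 ± 0.129 (adjusted p = 1.0 for both).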

How the data were processed

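RNA was measured in the left kidney of 24 rats, grouped by their labels. Per the study's methods, RNA was isolated with RNeasy kits and read on a BGISEQ-500 instrument. The submitters' processing notes name Trim Galore 0.6.4, kallisto and the build rn6, while the study's methods list human gene models. The authors deposited estimated counts per gene, with no normalization. They also deposited TPM values, in which the authors corrected for transcript length and library total. Symbols came from RefSeq (GRCr8) for 17179 of 17334 identifiers.

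Estimated counts were rounded, filtered with filterByExpr, scaled by TMM and fitted in 1 model of the 4 groups in edgeR 4.0.16 (R 4.3.3). The quasi-likelihood F-test was used between groups, and p-values were adjusted over all genes by the Benjamini-Hochberg method at 0.05. The SE was the absolute log2 fold change over the root of F. The study names DESeq2, and DESeq2 1.42.0 was run as an alternative. Correlations used Spearman's and Pearson's coefficients with 100000 permutations (scipy 1.17.1), in the 20 libraries on the near side of the largest gap on component 1. The scripts were tested on simulated data.

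The members, lists and tests were chosen with earlier results of these data known. Of other genes, the text names the 6 other family members of highest mean TPM with S100a8 and S100a9, the 2 partners of lowest p per comparison, the gene most like each member, and marker genes. S100g, Trpv6, Tlr4, Plau, Plaur, Ahnak, Dysf, Myof, Esyt1, Myh9 and Ovca2 fall outside this rule and were named after their values were seen. S100a14, S100p, Anxa9, Fpr2 and Trpm6 were not analysed here. Marker lists of neutrophils, urothelium, adrenal cortex, adipocytes, distal convoluted tubule, collecting duct and intercalated cells were also summed. No 2 libraries of a group agreed within sampling noise (smallest chi-square per degree of freedom 10.3). The labels give no batch. Control animals have other numbers than treated animals, so order of numbering and treatment cannot be told apart.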

Additional observations from a re-analysis of the deposited data

Results flagged for a closer look

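Of 40 pairs of gene and group, 6 had a highest or lowest animal whose gap to its nearest neighbour, divided by the range of the group, was above the critical value of 0.625 for 6 animals. Chance gives about 2 such pairs in 40.

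In ipABCB5, 5 of the 6 came from animal 38, one of the 4 separate libraries. It had 304 TPM of S100a6 where the other 5 animals had 671 to 854, 369 TPM of S100a10 against 836 to 1033, 2222 TPM of S100a11 against 5817 to 7179, and 146 TPM of Anxa2 against 362 to 471. Its Anxa13 was at 5.02 TPM against 0.956 to 2.41. The sixth was Anxa4 in CoCM, where animal 27, which is not a separate library, had 361 TPM against 267 to 299.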

How the results depend on the processing

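Over the alternatives that were planned, 307 of 320 log2 fold changes of members kept their direction and none passed the threshold. The number of genes called for CoCM against Ctrl was 1 in edgeR (Ovca2, not a member), 81 with DESeq2, 179 with limma voom and sample quality weights, and 0 with only the groups compared, log2(TPM + 1), log2(TPM + 0.1) or thinned counts. DESeq2 called 1 gene for ivABCB5 against Ctrl and 1 between the routes, and voom called 1 in the F-test. With voom, CoCM S100a6 was at 0.06, ipABCB5 S100a11 at 0.04, ivABCB5 Anxa4 at 0.04 and Anxa13 at -0.02, and between the routes Anxa1 was at -0.13, Anxa2 at -0.03, Anxa3 at -0.26, Anxa5 at -0.02 and Anxa13 at 0.58. On log2(TPM + 1) and log2(TPM + 0.1), the median of all genes for CoCM was -0.10 and -0.11, S100a10 was at -0.09 and S100a11 at -0.14. With voom the members' median was -0.15 for ivABCB5 and -0.16 for ipABCB5 against Ctrl. The cause of these reversals was not tested.

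Leaving out the 4 separate libraries, chosen after seeing the data, called 0 genes for CoCM and turned 13 of 40 values. CoCM S100a6 was at 0.13, Anxa2 at 0.04 and Anxa13 at -0.06, ipABCB5 S100a10 at 0.01 and S100a11 at 0.06, ivABCB5 S100a10 at 0.02 and Anxa13 at -0.46. Between the routes S100a10 was at -0.01, Anxa1 at -0.13, Anxa2 at -0.05, Anxa3 at -0.14, Anxa5 at -0.02 and Anxa13 at 0.66. Of the 4 left out singly, the genes called for CoCM ranged from 0 to 2, and values that turned ranged as follows: CoCM S100a4 -0.17 to 0.01, S100a6 -0.02 to 0.14, Anxa2 -0.13 to 0.05 and Anxa13 -0.05 to 0.68, ipABCB5 S100a10 -0.13 to 0.00 and S100a11 -0.11 to 0.06, between the routes Anxa1 -0.07 to 0.26 and Anxa3 -0.07 to 0.21. No paired analysis was possible because no animal number occurs in more than 1 group. The precision of Anxa13 is limited by 11 to 182 counts per library.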

Other observations

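S100g, an S100 relative that carries calcium in vitamin D-dependent transport, was at 18.5 to 28.9 TPM in the 4 separate libraries and 1.85 to 10.2 in the other 20. Trpv6, an epithelial calcium channel that S100a10 and Anxa2 bring to the membrane, was at 0.24 to 0.995 TPM against 6.64 to 15.3. Both genes, like those given with values next, were singled out after their values were seen. Among the 23 partners and receptors tested, 10 had all 4 libraries below the other 20 and 0 had all 4 above, where 22.8% and 3.55% of all genes did. Beside Trpv6 they were Tlr4, Plat (55.0 to 87.7 TPM against 90.0 to 175), the urokinase receptor Plaur (3.91 to 6.65 against 8.64 to 18.3), Ahnak (12.8 to 17.8 against 27.5 to 68.2), Dysf, Myof (13.6 to 15.7 against 24.1 to 50.5), Esyt1, Capn2 and Myh9. Urokinase (Plau, 451 to 802 TPM against 467 to 1025) and the plasminogen receptor Plgrkt (16.3 to 21.6 against 14.9 to 24.4) overlapped.

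The ratio of S100a6 to S100a4 in TPM was 5.55 in CoCM animal 39, 4.81 in ipABCB5 animal 38, and 3.28 and 5.53 in ivABCB5 animals 36 and 37, against 3.08 to 5.24 with a median of 4.24 in the other 20. Summed neutrophil markers were at 0.546 to 2.28 TPM in the 4 libraries against 1.92 to 17.5, and adrenal cortex markers at 4.71 to 7.98 against 9.4 to 27.2. Urothelium (1.62 to 12.6 against 1.33 to 146), adipocyte (32.5 to 85.3 against 16.5 to 237), distal convoluted tubule (663 to 2471 against 479 to 1962), collecting duct (521 to 1231 against 520 to 1228) and intercalated cell markers (490 to 1396 against 373 to 1068) overlapped.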
